A study of Mus musculus with 11 samples.

Results

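The KPP-eGFP cell line was grown in culture, and 3 exome libraries of these cells before implantation, named 1-B, 2 and 2-B, were compared with each other. KPP-eGFP is a clonal line that was made from a primary tumour of a mouse model of pancreatic ductal adenocarcinoma and labelled with a fluorescent reporter inserted by the PiggyBac transposon. Variants were called against spleen DNA of the wild-type host strain, so a variant is any difference of the cell line from its host, whether a mutation or an inherited polymorphism. The 3 libraries were chosen by their label, culture, and gave 1553 of the 3265 calls of the series, which cover 621 variants in 304 genes. The other calls came from 5 tumour libraries of the same line grown in mice, each of which may be a pool of biopsies (immune-inflamed 1-3 and 2-1, immune-excluded 1-4 and 2-2, immune-desert 2-3). These tumour calls were limited by the authors to variants seen in the cell line, and no call is listed for the 3 spleen libraries. The labels do not say whether the 3 culture libraries came from separate cultures, passages or DNA extracts, so the spread between them may be technical, and the line is 1 clone.

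In a clonal line, a variant that every cell carries on both chromosome copies has an allele frequency near 1, and one that every cell carries on 1 of 2 copies has a frequency near the middle of the scale. A mutation that arose during expansion is carried by a part of the cells and has a lower frequency. Repeated sequencing of 1 line shows which variants are found each time. A variant without a call is not a variant at a frequency of 0, since read depth is unknown, and no interval can be given for a single allele frequency. The values below are allele frequencies as fractions of reads, and intervals on shares of variants are Wilson 95% intervals that cover counting error only and treat neighbouring variants as independent, which they are not. The label was checked by the share of calls at a frequency of at least 0.95, which DNA of host cells would lower. This share was 21.1%, 20.9% and 18.8% in culture 1-B, 2 and 2-B, and 0% to 0.645% in the tumours.

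The sequences of 6 sites at which the culture libraries differed are shown from GRCm38 (RefSeq), on the plus strand from 5′ to 3′, because they show what a difference between libraries rested on. Capitals mark the reference bases of the variants named before each sequence. Bases of other variants called there stay in lower case. Ifna6 V66M (88827611), in the Ifna6 sequence, was at 0.385 in 1-B and 0.400 in 2-B and was not called in 2.
Ifna7 D101N, G102A and S103T (chr4:88816517-88816545, coding exon): ctgctgcttggGatgGaTccctcctagac
Ifna11 I145K and I145T (chr4:88820378-88820406, coding exon): gctggctgtgaggaTatacttccacagga
Ifna6 L63* (chr4:88827589-88827617, coding exon): ctttggattcccctTggagaaggtggatg
Trmt1 splice region (chr8:84689368-84689396, intron): cttgtccgggtgGgtgGgtgggtgggtgg
Nod2 splice region (chr8:88674978-88675006, intron): aaagtggctcaggtAagttgcaagatgtg
Cyld splice region (chr8:88742268-88742296, intron): tatttttattatttGtaggcaccatcatg

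Most variants of KPP-eGFP were found in every culture library. Of the 621 variants, 431 (69.4%, interval 65.7 to 72.9) were called in all 3 libraries, 70 (11.3%) in 2 and 120 (19.3%, 16.4 to 22.6) in 1. Culture 2-B had the most calls, 548 against 494 in 1-B and 511 in 2, and also the most variants of its own, 51 against 35 and 34. It was the library that missed least. Of the variants that both other libraries called, culture 2-B lacked 4 of 435 (0.920%, 0.358 to 2.34), culture 2 lacked 24 of 455 (5.27%, 3.57 to 7.73) and culture 1-B lacked 42 of 473 (8.88%, 6.64 to 11.8). The same counts by pair are 42 variants in 2 and 2-B only, 24 in 1-B and 2-B and 4 in 1-B and 2. Libraries 2 and 2-B share a number in their labels, which do not say whether they share a source. The ratio of variants called in both libraries to those called in either was 0.763 for 1-B and 2, 0.775 for 1-B and 2-B and 0.807 for 2 and 2-B.

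**Figure D1:**
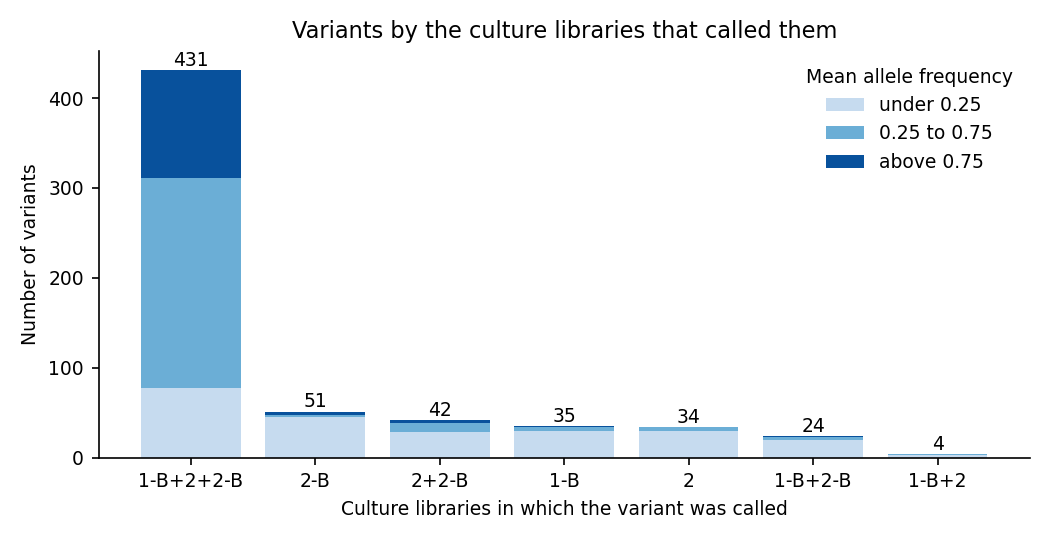
Number of variants (vertical axis) by the set of culture libraries that called them (horizontal axis), split by mean allele frequency over the libraries that called them. The 431 variants called in all 3 libraries include most of those at 0.25 or above, and the other sets, of 4 to 51 variants, lie mostly under 0.25.

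Whether a variant was found in every library went with its frequency. Of the 235 variants with a mean frequency under 0.25, 78 (33.2%, 27.5 to 39.4) were called in all 3 libraries and 105 in 1. From 0.25 to 0.75 it was 233 of 258 (90.3%, 86.1 to 93.4), and above 0.75 it was 120 of 128 (93.8%, 88.2 to 96.8). The median frequency of the variants called in 1 library alone was 0.0745 in 1-B, 0.0571 in 2 and 0.0732 in 2-B. The intervals of the low class lie below those of the other classes and do not overlap them.

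Variants in dense runs along a chromosome were compared with scattered ones. Runs of at least 20 variants with a frequency of at least 0.25 lie on chromosome 4 (86583085 to 103311578), chromosome 6 (145138202 to 148425959) and chromosome 8 (77277172 to 92865030), and are called dense blocks here. On chromosome 6, 83 of 85 variants (97.6%, 91.8 to 99.4) were called in all 3 libraries, on chromosome 8 it was 145 of 159 (91.2%, 85.8 to 94.7) and on chromosome 4 it was 112 of 147 (76.2%, 68.7 to 82.4). Outside the blocks it was 91 of 230 (39.6%, 33.5 to 46.0). Frequency moved with this difference, since it chose the blocks and 184 of the 230 variants outside were under 0.25. At 0.25 or above, 310 of 340 variants in the blocks (91.2%, 87.7 to 93.7) and 43 of 46 outside (93.5%, 82.5 to 97.8) were called in all 3 libraries. In this class the block of chromosome 4 was lowest, with 86 of 105 (81.9%, 73.5 to 88.1).

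Among genes, 164 of the 304 had every variant called in all 3 libraries, 22 had some called in all 3 and some not, and 118 had no variant that all 3 libraries called, 8 of these with more than 1 variant. Mylk3 on chromosome 8 (85324303 to 85386345), which encodes a kinase of cardiac myosin, had the most variants found every time, 20 of 20. Arntl2 on chromosome 6, which encodes a transcription factor of the circadian clock, had 15 of 15, with a median frequency of 1.00, 1.00 and 0.996 in 1-B, 2 and 2-B. At the other end stood 3 predicted genes. Gm10800 on chromosome 2 had 10 variants, Gm21738 on chromosome 14 had 6 and Gm10801 on chromosome 2 had 4, and 0 of these was called in all 3 libraries.

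**Figure D2:**
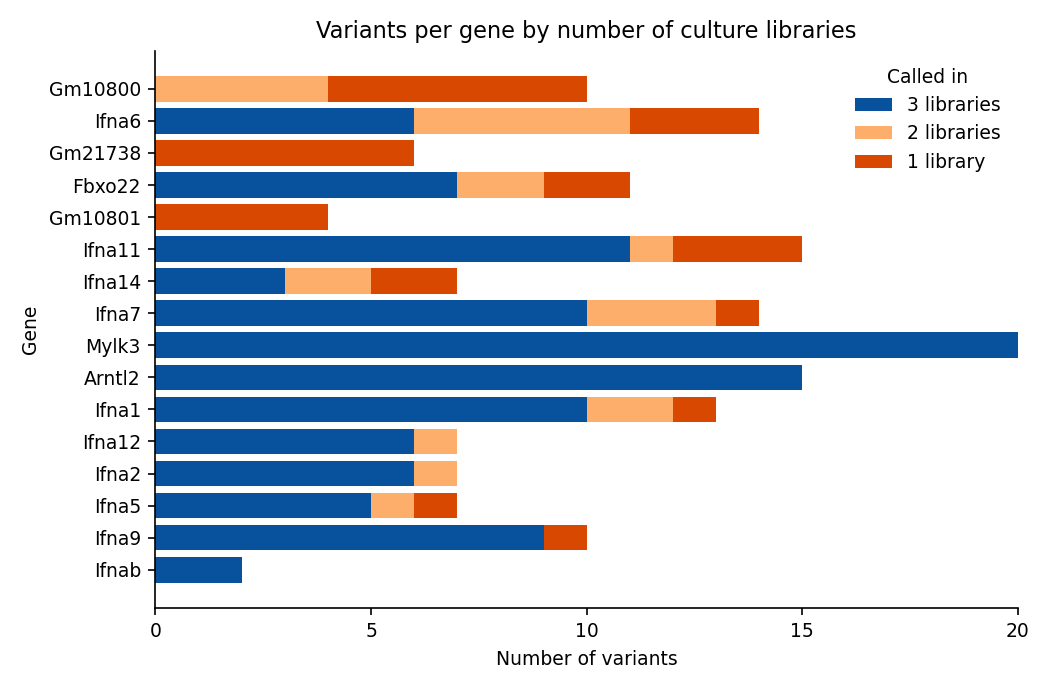
Number of variants per gene (horizontal axis) split by the number of culture libraries that called them, for the 8 genes with most variants not found in all 3 libraries, those with most variants found in all 3, and the other type I interferon genes. Mylk3 and Arntl2 are of 1 colour throughout, and Gm10800, Gm21738 and Gm10801 have no variant called in 3 libraries.

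The variants of Gm10800 stood close to the limit at which they differ from the spleen. Their frequencies in culture ran from 0.0219 to 0.0363, while the same alleles had a fraction of 0.0148 to 0.0193 in the spleen for all 10. S60F was at 0.0247 in culture 2 and 0.0250 in culture 2-B and was not called in 1-B, and R64S was at 0.0219 in 1-B and 0.0233 in 2 and was not called in 2-B. Across all 621 variants, those with an allele seen in the spleen (fraction above 0) numbered 48, of which 23 were called in all 3 culture libraries (47.9%, 34.5 to 61.7) against 408 of 573 (71.2%, 67.4 to 74.8) without one. Under 0.25, where 31 of the 48 lie, it was 7 of 31 (22.6%, 11.4 to 39.8) against 71 of 204 (34.8%, 28.6 to 41.6), and the intervals overlap. In Gm21738 all 6 variants were called in 1 library alone, 4 in 2-B and 2 in 1-B, at 0.04 to 0.118 with a spleen fraction of 0. For 5 of the 6, the 31 bases of the reference around the variant occur at several places of the genome. Over all variants, such repeated reference sequence surrounded 102, of which 55 (53.9%, 44.3 to 63.3) were called in all 3 libraries against 376 of 519 (72.4%, 68.4 to 76.1) elsewhere. Under 0.25, where 58 of the 102 lie, it was 19 of 58 (32.8%, 22.1 to 45.6) against 59 of 177 (33.3%, 26.8 to 40.6). From 0.25 to 0.75 it was 19 of 25 (76.0%, 56.6 to 88.5) against 214 of 233 (91.8%, 87.6 to 94.7). In both classes the intervals overlap. The part that repeats or spleen reads had in these calls was not tested.

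Fbxo22 on chromosome 9, which encodes the substrate-binding part of a ubiquitin ligase, held a row of low-frequency variants that most libraries shared. Of its 11 variants, 7 were called in all 3 libraries, 2 in 2 and 2 in 1. Over the 7 shared variants the mean frequency was 0.0902 in 1-B, 0.115 in 2 and 0.140 in 2-B, and culture 1-B was below culture 2 and culture 2-B for 7 of 7. L36M had 0.0824, 0.0873 and 0.0993 in 1-B, 2 and 2-B, and N225T had 0.0808, 0.0993 and 0.139. The stop change R95* was called in 1-B at 0.149 and in 2-B at 0.0692 and was not called in 2. A splice acceptor change at position 55209351 was called in culture 2 alone, at 0.0444. Fbxw9 on chromosome 8, the other F-box gene with variants, had S50T at 0.404, 0.432 and 0.407 and a splice acceptor insertion at 0.384, 0.391 and 0.316.

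Type I interferons are secreted proteins that induce antiviral and immune genes, and the mouse has many interferon alpha genes side by side on chromosome 4. Here 10 of these genes held 96 variants, of which 68 were called in all 3 culture libraries, 16 in 2 and 12 in 1. Over the whole cluster of these genes (88522025 to 88880201), 50 of the 65 variants at a frequency of 0.25 or above were called in all 3 libraries (76.9%, 65.4 to 85.5). In the rest of the dense blocks it was 260 of 275 such variants (94.5%, 91.2 to 96.7), and the intervals do not overlap. Under 0.25 the order was the other way, with 26 of 40 variants of the cluster in all 3 libraries (65.0%, 49.5 to 77.9) against 52 of 195 elsewhere in the genome (26.7%, 21 to 33.3). Frequency moved with this difference, as the median in this class was 0.119 in the cluster and 0.0672 elsewhere. Over all frequencies it was 72.4% (63.2 to 80) in the cluster and 68.8% (64.7 to 72.6) elsewhere. Of the 33 variants in all at 0.25 or above that some library lacked, 15 lay in the cluster, which held 65 of all 386 such variants. Of the same 33, 21 lay within 75 bases of another variant, against 136 of the 386, and 28 had a known mouse polymorphism number, against 246 of the 386. In a tumour, 13 of the 33 were called. The counts by gene were uneven. Ifna6 had 6 of 14 variants in all 3 libraries, Ifna14 had 3 of 7, Ifna7 had 10 of 14, Ifna1 had 10 of 13, Ifna11 had 11 of 15, Ifna9 had 9 of 10 and Ifnab had 2 of 2. Ifna12 and Ifna2 each had 6 of 7, and Ifna5 had 5 of 7. In Ifna9 the shared variants were low, with a mean of 0.117, 0.140 and 0.121 in 1-B, 2 and 2-B, and culture 1-B was below culture 2 for 9 of 9. Against 2-B, culture 1-B was above for 5 of these and below for 4. Over the 76 shared variants of the whole cluster, 1-B was above 2 for 25, below it for 36 and equal for 15.

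The highest frequencies among variants that a library lacked were found in these genes. Ifna6 L63* (position 88827603), a stop change, was at 1.00 in culture 2-B and was called in no other library, culture or tumour. Ifna7 D101N (88816528) was at 1.00 in culture 1-B alone. In the Ifna7 sequence shown, the 3 capitals lie in neighbouring codons. The codon of D101N was changed in 1-B, that of G102A in 1-B at 1.00 and in 2-B at 0.75, and that of S103T in all 3, at 1.00 in 1-B and 2 and 0.857 in 2-B. These neighbouring codons were thus called with 3 changes in 1-B, 1 in 2 and 2 in 2-B. Ifna6 S18P and Ifna1 A174T were each at 1.00 in culture 2 and culture 2-B and were not called in 1-B. Ifna7 S21C was at 0.786 in 2 and 0.5 in 2-B, and Ifna6 A37V was at 0.5 and 0.833. Gm13271 V144G (88755298), in a predicted gene within the cluster, was at 0.778 in 2-B alone, and its 31 bases with the alternate base occur at 14 places of the genome. With the alternate base, those of Ifna6 S18P and Ifna7 G102A each occur at 1 place. With the reference base, those of Ifna6 L63* occur at 2 places and those of Ifna1 A174T at 3. Those of Ifna7 D101N, Ifna7 S21C and Ifna6 A37V occur at 1 place with the reference base and 0 with the alternate base. In culture each of these variants was at 0.5 or above where it was called, whereas in tumours Ifna6 S18P was called in 2 at 0.0444 and 0.0483 and Ifna7 S21C in 1 at 0.0855.

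At 1 base of Ifna11 the libraries gave different alleles. Position 88820392 was called as I145T in 1-B at 0.349 and in 2-B at 0.388, and as I145K in culture 2 at 0.375. No library called both. The 31 bases around it occur at 1 place of the genome with the reference base, at 3 places with the base of I145T and at 6 with that of I145K. In Ifna7, position 88816661 carried T145K and T145I together in each library. T145K was at 0.137, 0.2 and 0.139 in 1-B, 2 and 2-B, and T145I at 0.833, 0.764 and 0.843. An insertion next to a run of cytosines in Lrmp (chromosome 6, position 145160523) was called with the alternate allele TCCCCCCCCCCC in culture 2 at 0.107 and with TCCCTCCCCCCC in 2-B at 0.0761. Ifna11 and Lrmp were the sites at which culture libraries called different alleles, 2 of the 3 positions with more than 1 alternate allele.

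Outside the interferon cluster, 18 of 321 variants at 0.25 or above were lacking in some library. Trmt1 encodes an enzyme that methylates transfer RNA. The G and T repeat in its sequence above holds an insertion called in culture 2-B at 0.821 (84689380) and a single-base change called in 2 at 0.773 and in 2-B at 0.903 (84689384), both absent from the calls of 1-B and both called in 1 tumour, the insertion at 0.789 and the change at 0.941. Mysm1, which encodes a histone deubiquitinase, had 2 variants in 2 and 2-B that 1-B lacked. H114Y was at 0.435 and 0.400, and D106Y was at 0.5 and 0.333. Both were also called in tumours, H114Y in 3 at 0.171 to 0.205 and D106Y in 2 at 0.241 to 0.259. Lrrc19 T239A was called at 0.640 in culture 2 alone, and in 3 tumours at 0.161 to 0.250. Lrrc19 N245D was at 0.5 in 1-B and 0.556 in 2 and was not called in 2-B. In all, 8 of these 18 variants and 5 of the 15 in the interferon cluster were called in a tumour, against 346 of 353 variants at 0.25 or above that all 3 culture libraries called. Nod2 Q255R, in a sensor of bacterial cell walls, was at 0.727 in culture 2-B and was called in 0 tumours. A splice region change of Cacna1a, a calcium channel gene, was at 0.722 in 1-B and 0.657 in 2-B.

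Variants close enough to share a read were compared as events. Merging variants within 75 bases, the read length, gave 474 events, of which 62 held more than 1 variant. In 40 of the 62, all variants had the same libraries, including 36 in which all 3 libraries called all of them, and in 22 the libraries differed within the event, as in the Ifna7 sequence. Counted as events, 336 of 474 were called in all 3 libraries and 87 in 1.

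Stop, frameshift and splice donor or acceptor variants, which can remove a protein's function, were found each time in fewer cases than the 69.4% of all variants. Of 22, 7 were called in all 3 libraries, 3 in 2 and 12 in 1, of the latter 2 in 1-B, 4 in 2 and 6 in 2-B. Frequency moved with this count, as 14 of the 22 were under 0.25, with 1 of them in all 3 libraries, and of the 8 at 0.25 or above 6 were in all 3. Of the 15 not called in all 3, 2 were the Fbxo22 changes above and 1 was Ifna6 L63*. Gm6625 had E114* at 0.323 in 2-B, placed in a non-coding exon, and the reference sequence around it occurs at 10 places of the genome. Ifna1 had a frameshift at 0.154 in 2-B and Ifna11 one at 0.136 in 2-B. Rps2-ps6, a pseudogene, had a frameshift at 0.115 in 2-B, and Klhdc1 had one at 0.109 in 1-B. Adam6b K628* was at 0.0947 in 2 and 0.114 in 2-B. The stop changes Lgmn W395* (1-B, 0.0394) and Kalrn W1457* (culture 2, 0.0541) and the deletions in Ccdc175 (culture 2, 0.0519), Kctd8 (culture 2, 0.0323) and Dao (0.0370 in 1-B and 0.0493 in 2-B) were lower. A splice donor change of Gm10800 was at 0.0232 in 2-B. Of the 15, 2 were called in a tumour.

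Among cancer genes, Arid1a, which encodes a subunit of a chromatin remodelling complex, had V1566I in all 3 libraries, at 0.300 in 1-B, 0.324 in 2 and 0.526 in 2-B. Culture 2-B was the high one, by 0.214 over the mean of the other libraries. Myc T373A, in a growth-promoting transcription factor, was at 0.145 in culture 2 and 0.0676 in 2-B and was not called in 1-B or in any tumour. Of 16 genes of DNA repair, 0 carried a variant, and as only 304 genes of the exome did, so short a list says nothing about that group.

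Allele frequencies of the 431 shared variants lay close together in the 3 libraries. The median absolute difference was 0.0296 between 1-B and 2, 0.0292 between 1-B and 2-B and 0.0278 between 2 and 2-B (0.0289 ± 0.000930, SD over 3 pairs). Across variants, which are not independent and share their library, Pearson's r was 0.965, 0.970 and 0.976 and Spearman's rho was 0.903, 0.903 and 0.904. Within classes of frequency, each of which spans a narrower range of values, the correlations were lower. Under 0.25 Pearson's r was 0.781, 0.741 and 0.810, and above 0.75 it was 0.675, 0.796 and 0.840. Within the 233 variants from 0.25 to 0.75, Pearson's r was 0.438, 0.472 and 0.544, and the median absolute difference rose to 0.0601, 0.0572 and 0.0553. In the dense block of chromosome 8, where 142 of these lie, the median frequency was 0.436, 0.431 and 0.440 in 1-B, 2 and 2-B, and Pearson's r was 0.286, 0.230 and 0.441, while among the 49 such variants of the chromosome 4 block r was 0.666, 0.796 and 0.773. Without the interferon cluster, 31 of those 49 were left, and their r was -0.0172, 0.517 and 0.311. No library was higher throughout. Over all 431 variants, 1-B was above 2 for 177 and below it for 194, above 2-B for 193 and below it for 184, and 2 was above 2-B for 191 and below it for 185, with the rest equal.

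**Figure D3:**
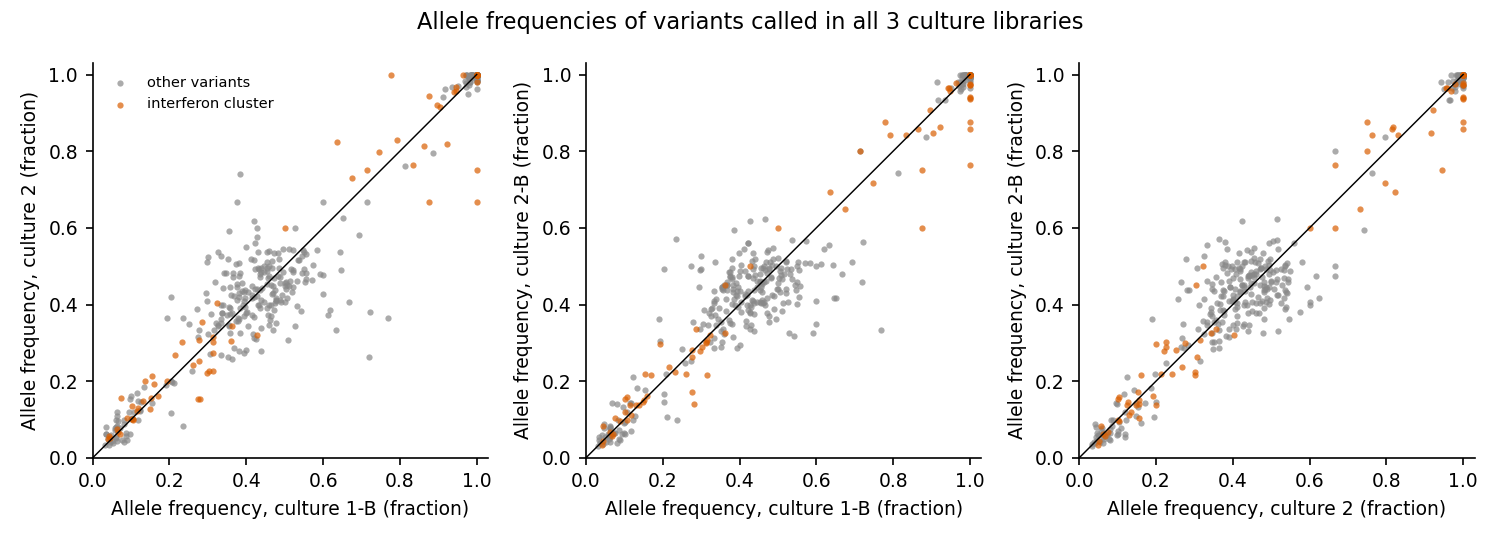
Allele frequency (fraction) in 1 culture library against another for the 431 variants called in all 3, with 1 panel per pair and the line of equal values. Orange points are variants of the interferon cluster, and the cloud at intermediate frequencies is wide, with r of 0.438 to 0.544 from 0.25 to 0.75.

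Mylk3 gives a close view of this spread, since its 20 variants lie in 1 gene of the chromosome 8 block. Their mean frequency was 0.437 in 1-B, 0.388 in 2 and 0.418 in 2-B, with a median SD per variant of 0.0393 over the 3 libraries. Culture 1-B was above culture 2 for 13 of 20 and 2-B was above 2 for 17 of 20, while T783A went the other way in 2-B, with 0.591 in 1-B, 0.478 in 2 and 0.326 in 2-B.

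The widest differences were found at intermediate frequencies. A range of at least 0.2 between the highest and the lowest library was found in 30 of the 431 variants (6.96%), 27 of them from 0.25 to 0.75 and 0 under 0.25. A frequency is bounded at both ends of its scale, so variants near an end have less room for such a range. The splice region variant of Nod2 (88674992) shown above had 0.719 in 1-B, 0.264 in 2 and 0.460 in 2-B, the widest range of all, 0.455. The other Nod2 variants called in all 3 libraries did not follow it. T227A had 0.536, 0.516 and 0.569, a splice region change at 88675448 had 0.275, 0.314 and 0.253, and E940Q had 0.333, 0.268 and 0.313. In Cyld, which encodes a deubiquitinase that limits NF-kappaB signalling, the splice region variant shown (88742282) had 0.769 in 1-B against 0.364 and 0.333. The pair of Phkb, a subunit of a kinase of glycogen breakdown, went opposite ways. The first (85935402) had 0.385, 0.741 and 0.594 in 1-B, 2 and 2-B and the second (86017501) had 0.722, 0.379 and 0.563. Culture 1-B was low at the first and high at the second. Gm6625 V74D, also placed in a non-coding exon, had 0.235, 0.364 and 0.571. Ifna7 V12A had 1.00, 0.667 and 0.765 and Ern2 L209F, in a sensor of protein folding, had 0.633, 0.333 and 0.556. Olfr1507 F116I had 0.375, 0.667 and 0.475, Mmaa H31P 0.203, 0.419 and 0.492 and Ccdc158 K1013T 0.652, 0.625 and 0.417. Together with Mylk3 T783A and Arid1a V1566I these 12 variants held the 5 largest differences of each library, and the highest library was 1-B for 7 of them, 2 for 2 and 2-B for 3.

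**Figure D4:**
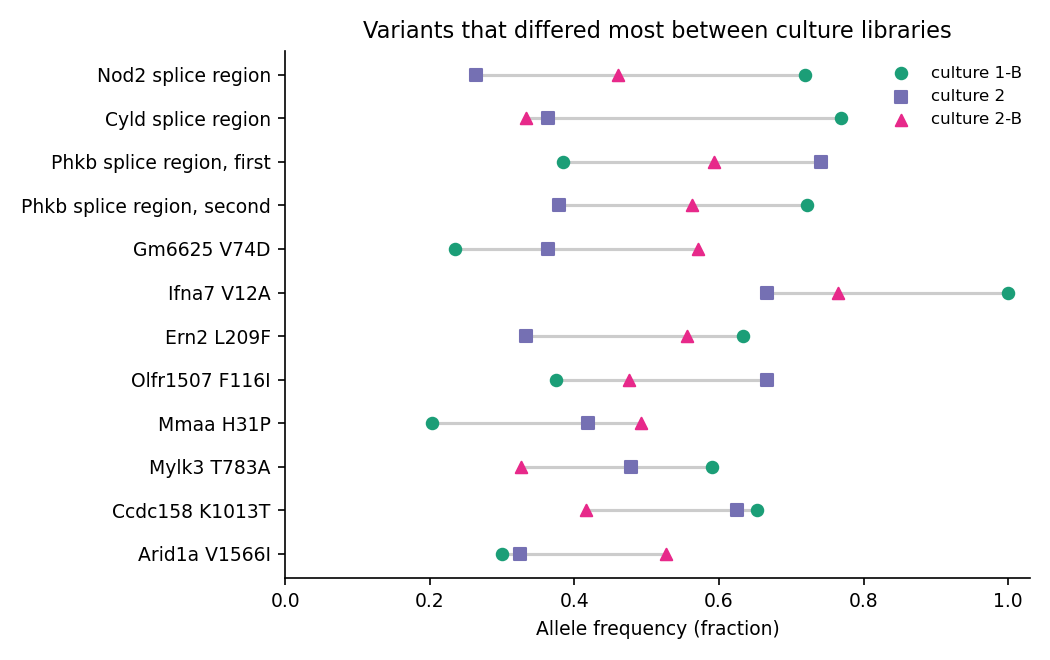
Allele frequency (horizontal axis, fraction) in each of the 3 culture libraries for the 12 shared variants that held the 5 largest differences of each library from the mean of the others. Grey lines join the lowest and the highest library, and the ranges run from 0.226 in Arid1a to 0.455 in Nod2.

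Each library was also compared with the mean of the other libraries over all 431 shared variants with limma. At an adjusted p under 0.05, 0 variants (0%) differed in 1-B, 0 (0%) in 2 and 4 (0.928%) in 2-B, and at an unadjusted p under 0.05 there were 33, 28 and 30. The 4 were Ifna7 S103T (-0.143) and Ifna1 R36K (-0.0606), A37T (-0.0645) and A37V (-0.0588), each at exactly 1.00 in both 1-B and 2 and at 0.857 to 0.941 in 2-B (limma adjusted p = 0.0369 for each). A group of 2 libraries at 1.00 has no spread, and in simulated data the same comparison called variants that had not been shifted and found none of the shifted ones at any shift tried, so neither these calls nor the absence of others describes the libraries. A comparison restricted to the 311 variants with a mean under 0.75, chosen after these calls were seen, gave 0 of 933 tests (0%), with 49 at an unadjusted p under 0.05 and a smallest adjusted p of 0.673. In simulated data this comparison found only the largest of the shifts tried, and only after the simulation had been revised because it had found none before. The comparison therefore does not decide whether the differences seen at Nod2 or Cyld exceed the spread between libraries.

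T>G changes (counting A>C on the other strand) were frequent among variants outside the dense blocks, 51 of 184 under 0.25 and 13 of 46 at 0.25 or above. Under 0.25 they were 25 of 92 among those called in 1 library (27.2%, 19.1 to 37.0), 13 of 44 in 2 and 13 of 48 in 3 (27.1%, 16.6 to 41.0). There the intervals of variants found once and found each time overlap, and so do those of C>T, 13.0% (7.62 to 21.4) in 1 library and 22.9% (13.3 to 36.5) in 3. Across all 621 variants, of which most of those called in 3 libraries lie in the blocks, both shares were apart. T>G made up 24.2% (17.4 to 32.6) of variants called in 1 library and 12.5% (9.73 to 16.0) of those called in 3, and C>T made up 10.8% (6.44 to 17.7) and 31.6% (27.3 to 36.1). By library, the T>G share of low-frequency variants outside the blocks was 22.9% in 1-B, 28.0% in 2 and 31.3% in 2-B, and among variants private to the library it was 3 of 29, 8 of 25 and 14 of 38, with intervals that overlap.

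The base after the changed T was often another T. It was T in 36 of the 51 T>G variants (70.6%, 57 to 81.3), and T stood there after 962 of the 3327 Ts (28.9%, 27.4 to 30.5) in the 31-base windows around the variants outside the blocks, read on both strands. The letters CTT stood at 20 of the 51 (39.2%, 27.0 to 52.9) and at 8.03% of those Ts. Among T>G variants in the dense blocks a T followed in 14 of 32 (43.8%, 28.2 to 60.7), with an interval that overlaps that outside the blocks. CTT stood at 3 of 32 (9.38%, 3.24 to 24.2), with an interval that lies below that outside the blocks. This pattern was noticed in the data and is given without a test. The 6 most frequent T>G variants outside the blocks that were called in 1 library are shown from GRCm38 on the strand that reads T, with the changed base as the capital.
4932438A13Rik S2315R (chr3:36973397-36973425, minus strand, coding exon, 0.179 in culture 2): cacagctgcactacTtctctgaggagtgc
Smoc2 K373N (chr17:14399465-14399493, minus strand, coding exon, 0.149 in 2-B): aacctcttaaagggTttgatctccttctt
Cntn3 S1017A (chr6:102165342-102165370, minus strand, coding exon, 0.132 in 2-B): tgtcaggttatatgTctgtcctactgttc
Cpxcr1 N77H (chrX:116477608-116477636, minus strand, coding exon, 0.128 in 2-B): atctgggggatcatTttgagtcatctctg
Gm4847 K301N (chr1:166635003-166635031, plus strand, coding exon, 0.125 in 2-B): tctttaacatttggTtttatcttcacttt
Fga K410T (chr3:83031534-83031562, minus strand, coding exon, 0.102 in 2-B): tcttggtaatggttTtagagcatgaacga
A T follows the capital in 5 of the 6, and Cntn3 is the exception. None of the 6 was called in a tumour (0 of 6).

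The tumours give a further look at the same variants, since the tumour calls did not enter the count of culture libraries. Of the variants under 0.25, those called in all 3 culture libraries were called in 23.1% and 15.4% of cases in the immune-inflamed tumours 1-3 and 2-1, in 32.1% and 26.9% in the immune-excluded tumours 1-4 and 2-2 and in 46.2% in the immune-desert tumour 2-3. Those called in 1 culture library were called in 6.67%, 0.952%, 3.81%, 3.81% and 5.71%. The difference was 24.5 percentage points ± 10.4 (SD, n = 5), positive in 5 of 5 tumours (exact permutation test of the signs, two-sided p = 0.0625, the smallest p that 5 tumours allow). The test takes the 5 libraries as independent, though their labels fall under 2 first numbers whose meaning is not stated. Every tumour was scored on the same variants, so the p does not cover the spread between variants. The difference was 16.4 and 28.2 points in the libraries under 1 and 14.4, 23.1 and 40.4 points in those under 2. Frequency moved with this difference, as the median was 0.0985 for variants called in 3 libraries and 0.0615 for those called in 1. From 0.05 to 0.1, where the medians were 0.0653 and 0.0678, 9 of 31 variants called in 3 libraries (29.0%, 16.1 to 46.6) and 9 of 42 called in 1 (21.4%, 11.7 to 35.9) were called in any tumour, and the intervals overlap. From 0.1 to 0.15 it was 14 of 20 (70.0%, 48.1 to 85.5) against 2 of 18 (11.1%, 3.10 to 32.8), and the intervals are apart. Under 0.05 it was 2 of 8 (25.0%, 7.15 to 59.1) against 5 of 40 (12.5%, 5.46 to 26.1), and the intervals overlap. From 0.15 to 0.25 it was 16 of 19 against 1 of 5. For variants called in 1 library the mean rests on that library alone, so these bins do not fully match the groups in frequency. At higher frequencies, 232 of the 233 variants from 0.25 to 0.75 called in all 3 libraries were called in a tumour, and of those called in 2 and in 1 it was 7 of 14 and 3 of 11. Under 0.25, the interferon cluster held 26 of the 78 variants called in 3 culture libraries and 7 of the 105 called in 1. In a tumour, 26 of its 40 variants under 0.25 were called, against 47 of 195 elsewhere. Their median culture frequencies were 0.119 and 0.0672. No setting left the cluster out, so its part in the difference of 24.5 points was not tested.

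**Figure D5:**
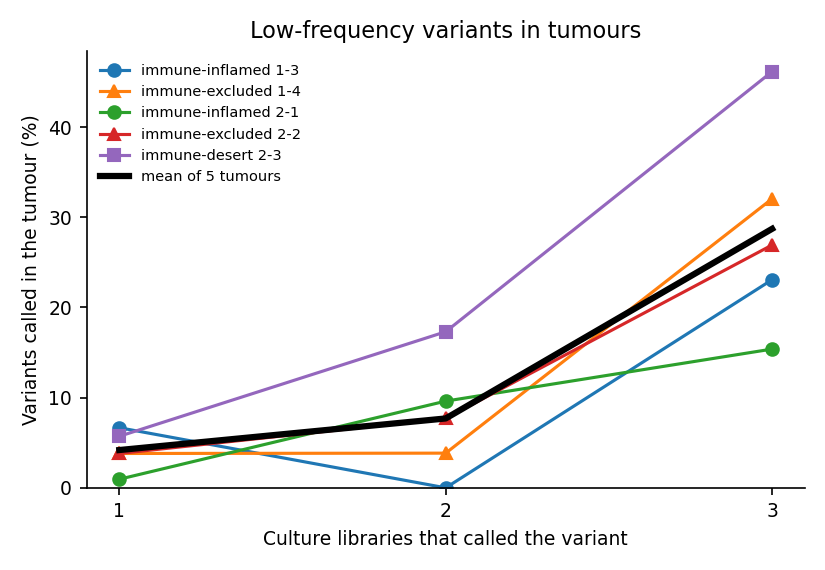
Share of low-frequency culture variants (mean under 0.25) that were called in each of 5 tumours (vertical axis, percent) by the number of culture libraries that called them (horizontal axis), with 105, 52 and 78 variants called in 1, 2 and 3 libraries. The thick line is the mean of the 5 tumours, and every tumour is higher at 3 libraries than at 1.

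The share of tier 2 calls differed between culture and tumours by less than the spread between libraries. Strelka scores a call from a strict set of reads, tier 1, or from a relaxed set, tier 2. Tier 2 calls made up 39 of 494 (7.89%, 5.83 to 10.6) in 1-B, 51 of 511 (9.98%, 7.67 to 12.9) in 2 and 75 of 548 (13.7%, 11.1 to 16.8) in 2-B, so the library with most calls also had the largest share of tier 2. The culture mean was 10.5% ± 2.93 (SD, n = 3) against 10.3% ± 1.99 (SD, n = 5) for tumours, a difference of 0.214 percentage points (exact two-sided permutation test, p = 0.964, with 0.0357 the lowest of its 56 arrangements). The test takes all libraries as independent, which the labels do not state. Tumour calls were also limited to variants seen in the cell line. The difference fell to -1.37 without culture 2-B. With tier 1 calls alone, 336 variants were called in all 3 culture libraries and 122 in 1.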

How the data were processed

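Exomes of 3 culture libraries, 5 tumours and 3 spleens were sequenced as paired 75-base reads. The authors mapped them to GRCm38 with BWA, realigned and marked duplicates after GATK best practices and called variants with Strelka against spleen. Of the versions, none was found: not given in the sources used here. Each deposited call holds the variant allele frequency and the spleen's frequency, both as a fraction of reads, and the call's tier as a score of 1 or 2. Of 10 columns per sample, 7 were not used. Depth is unknown, as the table holds 0 depth values.

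Groups came from the labels. A variant was 1 change at 1 position, and 621 of 621 reference bases matched GRCm38, whose GENCODE annotation held 613 in their named gene. The 31 bases around each, with reference and alternate base, were searched on both strands. Mean frequencies are over the libraries that called a variant. The spleen fraction used for a variant is that of its first listed call, in any library. Blocks were runs of at least 20 variants at 0.25 or above with gaps of at most 5 Mb.

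Each library was compared with the other 2 with limma (lmFit, eBayes with trend, Benjamini-Hochberg over all variants and the 3 comparisons, adjusted p under 0.05). The fit has 1 residual degree of freedom per variant. It was tested on simulated data under 2 set-ups. The first had 1 depth throughout, and the second, made after the first recovered no shifted variant, had varied depths and a larger shift. Both depths were assumed. Tumours were compared by exact permutation tests. Alternatives were tier, kind of variant, minimum frequency, unique sequence, merged events, scale, prior, and leaving out each library.

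Members, lists and tests were chosen with earlier results of these data known. Named were the 10 most frequent variants not in all 3 libraries, the 5 largest differences per library, the 8 genes with most variants not in all 3 and the 5 with most in all 3, all truncating variants not in all 3, and genes of lists for pancreatic cancer, DNA repair, type I interferons and F-box proteins, of which 1 gene is not reported here. Other variants (Ifna11 I145, Ifna7 S103T and T145, Ifna1 R36K, A37T and A37V, Lrmp, Lrrc19, Mysm1, Cacna1a, the further Nod2 variants, single Gm10800 variants and the T>G examples) were named after their values were seen. The work used Python 3.11, numpy 2.4.6, pandas 2.3.3, scipy 1.17.1, numba 0.67.0, matplotlib 3.10.9, and limma 3.58.1 in R 4.3.3.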

Additional observations from a re-analysis of the deposited data

How the results depend on the processing

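Without depth, a missing call cannot be told from a low or unread allele. The 431 variants called in all 3 libraries became 336 to 413 with tier 1 calls, single-base variants, a minimum frequency of 0.1, unique sequences or merged events, 435 to 473 without 1 library, and 91 outside the blocks, where fewer variants were counted. The 120 called in 1 library became 60 at a minimum frequency of 0.1, 87 to 122 under the other settings and 113 to 135 without 1 library. The mean median difference of 0.0289 became 0.0244 with tier 1 calls, 0.0279 with single-base variants, 0.0575 from 0.25 to 0.75, 0.0442 on the arcsine square root and 0.0278 to 0.0296 without 1 library. The 4 variants called by limma became 30 on the arcsine square root, 14 with a robust prior, 7 with tier 1 in all 3 libraries, 21 with libraries shifted to 1 median and 0 without a trend. They also became 0 under 0.75 on either scale, 2 settings chosen after the data were seen. All calls on the original scale, on the arcsine scale and with the robust prior had a mean of at least 0.75, as did 15 of the 21. Leaving out a library could not be fitted, since 1 library against 1 has no residual degrees of freedom. The tier 2 difference of 0.214 ran from -1.37 to 1.53 without 1 library, turning negative without culture 2-B (-1.37), immune-inflamed 2-1 (-0.325) or immune-excluded 2-2 (-0.195). The tumour difference of 24.5 points kept its direction in 9 of 9 alternatives, from 15.1 under 0.15 to 27.1 without immune-inflamed 2-1. The causes of these changes were not tested. Labels of culture libraries and tumours share first numbers whose meaning is not stated, so no paired analysis was made.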
